A study of Rattus norvegicus with 9 samples.

Results

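Messenger RNA of 4T1 cells, a mouse mammary carcinoma line used as 1 line throughout, was compared between cells kept in medium alone (Control, n = 3) and cells given molybdenum disulfide particles and near-infrared light (MoS2_NIR, n = 3). These are 6 of the 9 libraries of the series, and the other 3, from cells given the particles without light, are not compared here but entered the recovery of the values, the choice of genes to test, the scalings and the estimate of the spread. All cells grew in high-glucose DMEM with serum and antibiotics. The labels call the irradiated cells photothermal therapy and give no particle dose, light power, temperature or time of harvest. No group had light without particles, so the contrast is that of the whole treatment, and the shares of particles, light and heat in it cannot be told apart. Whether the replicates of a group were grown as separate cultures is not given, and p-values therefore measure only the spread between these libraries, which may be technical.

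The table used here holds 2392 genes, of which 2387 have a name and a value that could be recovered from the deposited standardized scores. Their unit, the depth of the libraries and the rule that selected the genes are not given, so a count of calls describes genes already picked. Of the 12 genes listed as markers of 4T1 cells, 4 are among them, namely Lcn2, Spp1, Csf3 and Krt14. Krt14 read 0.59, 0.63 and 1.13 in Control and 0.21, 0.18 and 0.31 in MoS2_NIR, below the limit for testing. Of 9 fibroblast markers Postn and Col1a1 are among the genes, and of 10 immune and 5 endothelial markers the table has 0, so the cell type could be checked only in part. The labels give the rat as organism, but the cell line, the genome build and the gene identifiers are those of the mouse.

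Molybdenum disulfide absorbs near-infrared light and turns it into heat. Heat unfolds proteins, and cells answer by releasing the transcription factor HSF1, which switches on genes of chaperones such as HSP70 that bind unfolded proteins and limit their clumping. Heat, oxidants and metals also act on other stress pathways, among them those of ATF4, NRF2, p53 and the growth factor kinases ERK, JNK and p38, whose early targets include the FOS, JUN and EGR transcription factors.

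Nearly every gene that could be tested differed between irradiated and control cells, and about 2 in 3 were higher. Testing was limited to the 1746 genes that reached a value of 1 in 3 or more of the 9 libraries. Of these, 1109 (63.5%) were higher and 592 (33.9%) were lower in MoS2_NIR at an adjusted p under 0.05 in limma with Benjamini-Hochberg adjustment, and 45 were not called, so that 97.4% were called in either direction. The 3 irradiated values lay above the 3 Control values in 1106 genes (63.3%) and below them in 577 (33.0%), together 96.4%. A gene could pass the limit of 1 through the group where it is high, and the counts of calls include such genes. Examples given below with all 3 Control values under 1 are Hspa1a, Hspb1, Dnajb5, Egr1, Lig4, Slc30a1, Ccl20, Mir17hg, Apoe and Slc16a8. Hspb7, Postn and H2bu2 lay under 1 in all irradiated libraries. For such genes the filter itself favours a difference, which their p-values do not take into account. The ratio of group means was at least 2 in 1060 of the genes called higher (60.7% of those tested) and in 373 of those called lower (21.4%), and at least 8 in 56 (3.21%) and 42 (2.41%). The median log2 fold change over all tested genes was 1.01, where a fold change here and below is a difference of group means of log2 (value + 1). The median value of a library was 1.63 to 1.98 in Control and 3.19 to 3.26 in MoS2_NIR, and Pearson correlations across genes were 0.980 to 0.982 within Control, 0.979 to 0.984 within MoS2_NIR and 0.742 to 0.774 between the groups, genes not being independent replicates.

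The split between higher and lower depended on scaling. When the libraries were scaled to the same median ratio across genes, 610 genes (34.9%) were higher and 634 (36.3%) lower, with a median log2 fold change of 0.16. After quantile normalization 985 (56.4%) were higher and 612 (35.1%) lower, with a median of 0.44. Which scaling fits cannot be settled in a table of selected genes. The larger gene lists below are therefore given with their count after median-ratio scaling, while some lists with few tested members are not. In these bulk libraries fewer cells of a kind and less RNA per cell cannot be told apart.

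**Figure D1:**
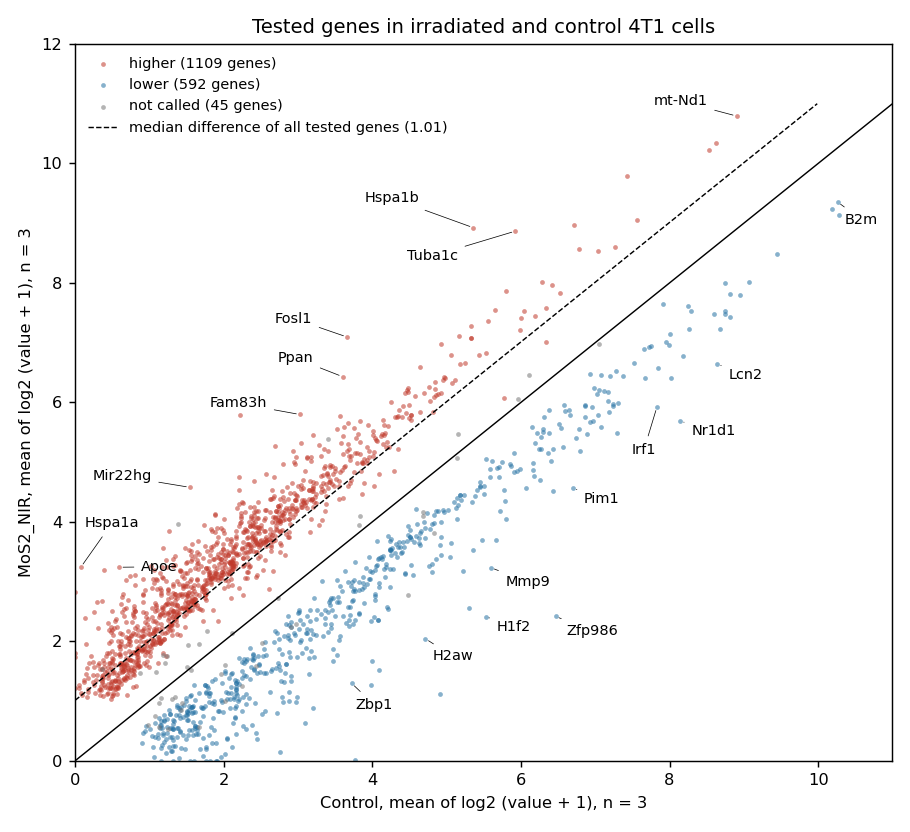
Mean log2 (value + 1) of each tested gene in Control (x axis) and MoS2_NIR (y axis), 3 libraries each, coloured by the limma call: red higher (1109 genes), blue lower (592), grey not called (45). The solid line marks equal means and the dashed line the median difference of 1.01. Hspa1b, Fosl1, Tuba1c and Ppan stand far above the dashed line, and Zfp986, H1f2, Mmp9 and Nr1d1 far below the solid one.

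Heat shock genes were among those with the largest increases. Of the 9 heat shock and chaperone genes tested, 7 were called higher and 2 lower, against 63.5% and 33.9% of all tested genes, with a median log2 fold change of 1.47. With median-ratio scaling the counts were 5 and 2, against 34.9% and 36.3% of all tested genes. The 7 include Hspa1a, Hspb1 and Dnajb5, which lay under 1 in all Control libraries and passed the limit for testing only outside Control. Hspa1b (ENSMUSG00000090877), 1 of the pair of genes for inducible HSP70, read 45.2, 43.5 and 32.6 in Control replicates 1 to 3 and 206, 1014 and 544 in MoS2_NIR replicates 1 to 3. Every irradiated value was above every Control value, and the irradiated values themselves were spread widely. Its log2 fold change was 3.57 (SE 0.51, limma adjusted p = 0.000262), and the irradiated mean of 588 was 375 without MoS2_NIR replicate 2. The other HSP70 gene, Hspa1a, read 0.05, 0.09 and 0.03 in Control and 2.69, 19.7 and 10.2 in MoS2_NIR (limma adjusted p = 0.000508 for a log2 fold change of 3.17 with an SE of 0.53). With Control values this near 0 the fold change rests on the pseudocount, and it was 5.74 with 0.1 and 1.49 with 5 in place of 1. The groups did not overlap, with an irradiated mean of 10.8 that was 6.42 without MoS2_NIR replicate 2. The copies are nearly identical in sequence, and how reads were divided between them is not known.

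The small heat shock proteins, which hold unfolded proteins for refolding by HSP70, moved in both directions. Hspb1, which encodes HSP27, was listed at 0 in all 3 Control libraries and at 3.09, 12.5 and 5.42 in MoS2_NIR. No fold can be given against a group listed at 0, and the irradiated mean of 7.01 was 4.25 without MoS2_NIR replicate 2. Cryab, the gene of alphaB-crystallin, read 9.27, 10.1 and 10.7 in Control and 26.9, 33.04 and 29.1 in MoS2_NIR, and the groups did not overlap (log2 fold change 1.47, SE 0.12, limma adjusted p = 8.73e-07). Hspb8 read 29.2, 29.2 and 27.2 against 70.5, 70.1 and 68.98, with a log2 fold change of 1.26 (limma adjusted p = 2.05e-07) that was 0.15 after median-ratio scaling (limma adjusted p = 0.0928). Hspb6 and Hspb7, best known from muscle and heart, were lower. Hspb6 fell from 26.3, 30.3 and 25.8 to 15.8, 13.7 and 14.7 (log2 fold change -0.86, limma adjusted p = 1.99e-05) and Hspb7 from 2.08, 2.11 and 1.52 to 0.36, 0.51 and 0.42 (-1.02, limma adjusted p = 3.59e-05).

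The partners of HSP70 in the table were higher. Dnajb5, a J-domain protein that delivers clients to HSP70, rose from 0.98, 0.4 and 0.51 to 4.83, 5.5 and 4.34 (log2 fold change 1.87, SE 0.15, limma adjusted p = 7.5e-07). Hsph1, the HSP110 that recharges HSP70 with nucleotide, rose from 31.9, 27.1 and 29.3 to 60.6, 82.02 and 71.1 (log2 fold change 1.24, limma adjusted p = 2.01e-06), which became 0.12 after median-ratio scaling (limma adjusted p = 0.414). The lists of endoplasmic reticulum chaperones and of ubiquitin and proteasome genes, with 19 and 23 members, have 0 members among the genes analysed here. The proteasome genes Psmb8, Psmb9 and Psme1 were listed under antigen presentation and are given there.

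**Figure D2:**
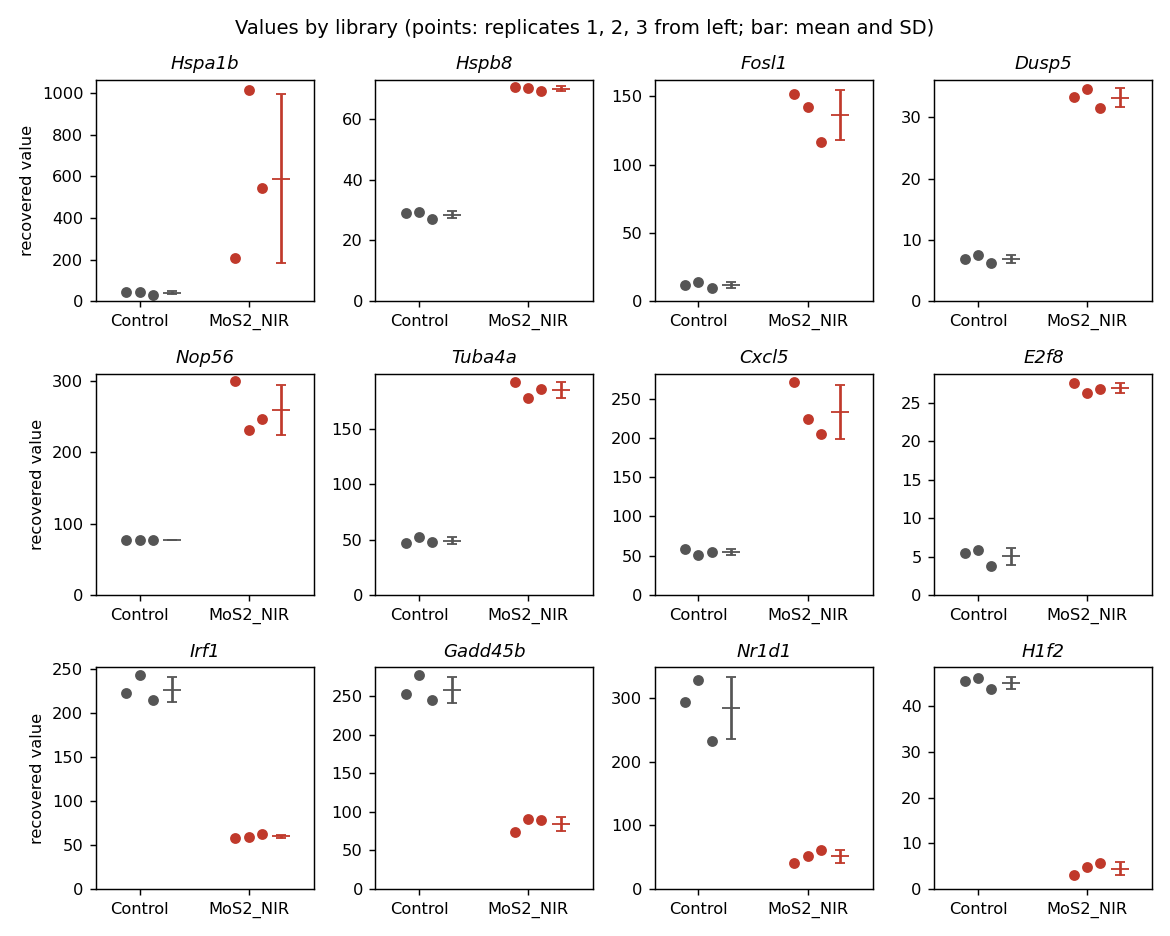
Recovered values (y axis, unit not stated, linear from 0) of 12 genes in each library (x axis, grey Control and red MoS2_NIR, replicates 1 to 3 from left), with the mean and SD of the 3 libraries beside the points. In all 12 genes the groups do not overlap, as in 96.4% of all tested genes. The irradiated values are spread most widely for Hspa1b, while those of Hspb8 differ by less than 2.

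Of 14 tested genes of the AP-1, EGR and immediate early list, 8 were higher, 5 lower and 1 not called. The shares of 57.1% higher and 35.7% lower are near the 63.5% and 33.9% of all tested genes. After median-ratio scaling the counts were 7, 6 and 1, against 34.9% higher and 36.3% lower among all tested genes. Fosl1 (ENSMUSG00000024912), the gene of FRA-1, which pairs with JUN proteins in AP-1, read 11.7, 13.9 and 9.57 in Control and 151, 142 and 116 in MoS2_NIR. The groups lay far apart, and the log2 fold change was 3.44 (SE 0.15, limma adjusted p = 4.92e-08). Fos, the founding member of the family, went the other way, from 22.2, 22.04 and 18.04 to 3.9, 7.33 and 15.1 (log2 fold change -1.32, SE 0.37, limma adjusted p = 0.00788). The highest irradiated value of Fos, in replicate 3, lay close to the lowest Control value, and without that library the irradiated mean of 8.77 was 5.62. Egr1, a zinc finger factor induced by ERK, rose from 0.58, 0.93 and 0.73 to 4.81, 9.83 and 9.21 (log2 fold change 2.31, SE 0.22, limma adjusted p = 2.47e-06).

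Other early genes were found on either side. Ier3, an early gene that modulates cell survival, rose from 189, 198 and 176 to 567, 555 and 475 (log2 fold change 1.49, limma adjusted p = 1.14e-07). Rhob, a small GTPase, rose from 23.8, 24.1 and 16.99 to 58.2, 72.4 and 86.5 (1.70, limma adjusted p = 2.79e-06), and the transcription factor gene Klf6 from 31.8, 31.5 and 26.9 to 77.3, 75.2 and 94.8 (1.42, limma adjusted p = 7.01e-07). Ier2 had a log2 fold change of 1.25 that was 0.14 after median-ratio scaling, no longer past the limma threshold. Lower values were found for Id2 and Id3, which block DNA binding by basic helix-loop-helix factors. Id2 fell from 126, 123 and 120.4 to 56.99, 57.9 and 63.8 and Id3 from 81.1, 70.3 and 65.02 to 32.5, 41.3 and 44.4 (limma adjusted p = 1.08e-06 and 4.69e-05). Klf10 and Ier5l had log2 fold changes of -0.62 and -0.84. Nr4a1, an orphan nuclear receptor gene, read 45.9, 35.3 and 24.7 in Control and 27.5, 41.7 and 30.5 in MoS2_NIR, overlapping values with a limma adjusted p of 0.841 (log2 fold change -0.06). After median-ratio scaling it was called lower, at -1.17 (limma adjusted p = 0.00503).

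The list of ERK feedback genes holds phosphatases and Spred inhibitors that restrain ERK and related kinases, and also targets and a ligand of the pathway. Of 10 tested, 9 were called higher and 1 lower, against 63.5% and 33.9% of all tested genes. After median-ratio scaling the counts were 6 and 1, against 34.9% and 36.3%. Dusp5 and Dusp6, phosphatases that switch ERK off, rose from 6.91, 7.55 and 6.23 to 33.3, 34.6 and 31.5 and from 8.08, 9.19 and 8.25 to 24.1, 22.1 and 26.3 (log2 fold changes 2.11 and 1.40, limma adjusted p = 5.13e-08 and 4.61e-07). Dusp8, whose product acts on JNK and p38, rose from 1.03, 1.7 and 0.56 to 4.22, 4.28 and 4.45 (1.38, limma adjusted p = 1.62e-05). Dusp4, Spred1 and Spred2 had log2 fold changes of 1.29, 1.17 and 1.18, all called. After median-ratio scaling the log2 fold changes were 0.19, 0.18 and 0.12, and all 3 calls were lost. Dusp7 was the exception and fell from 107, 116 and 78.8 to 50.99, 57.9 and 63.7 (-0.78, limma adjusted p = 0.000247). Phlda1 rose from 24.5, 24.2 and 22.9 to 88.1, 99.99 and 97.3 (1.95, limma adjusted p = 8.37e-08), and Areg, the gene of the EGF receptor ligand amphiregulin, from 3.72, 3.6 and 1.87 to 12.6, 10.1 and 9.46 (1.55, limma adjusted p = 1.6e-05). Etv5, an ETS factor downstream of ERK, had a log2 fold change of 1.32 (limma adjusted p = 1.65e-06).

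All 16 tested genes of ribosome assembly and RNA polymerase I were called higher, against 63.5% of all tested genes. Their median log2 fold change was 1.5, against 1.01 for all tested genes. With median-ratio scaling the count was 12 higher and 0 lower, against 34.9% and 36.3% of all tested genes. With quantile normalization it was 14 and 0, against 56.4% and 35.1%. Ppan (ENSMUSG00000004100), a factor for maturation of the large subunit, read 12.8, 11.7 and 9.13 in Control and 91.4, 85.7 and 79.2 in MoS2_NIR. The irradiated values were all several times the Control values, with a log2 fold change of 2.83 (SE 0.13, limma adjusted p = 5.13e-08). Rrs1, which helps to bring 5S RNA into the large subunit, rose from 3.64, 4.75 and 2.65 to 22.03, 22.8 and 21.4 (2.32, SE 0.16, limma adjusted p = 2.65e-07). Grwd1 rose from 3.61, 4.22 and 3.13 to 20.2, 20.1 and 16.2 (2.09, limma adjusted p = 2.65e-07) and Nol9, a polynucleotide kinase of ribosomal RNA processing, from 3.25, 3.52 and 2.05 to 14.3, 14.2 and 13.1 (1.94, limma adjusted p = 4.34e-07). Nop56, a core protein of C/D box snoRNPs, which methylate ribosomal RNA, read 76.9, 76.6 and 76.5 in Control and 299, 232 and 247 in MoS2_NIR (1.74, SE 0.10, limma adjusted p = 1.2e-07). Its Control values differed by less than 1 and its irradiated values all lay far above them. The remaining members, Utp4, Tsr1, Rrp9, Nip7, Gnl3, Bysl, Rrp36, Rrp12, Nop9, Polr1f and Utp25, had log2 fold changes between 1.02 for Utp25 and 1.66 for Utp4, and the calls of Nip7, Nop9, Polr1f and Utp25 were lost after median-ratio scaling.

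Myc, whose protein drives transcription of ribosome genes, rose from 68.9, 72.02 and 55.6 to 174, 184 and 191 (log2 fold change 1.47, SE 0.11, limma adjusted p = 3.67e-07). Among genes of its dimerization network, Mnt, a repressor that competes for the partner MAX, rose from 6.11, 7.13 and 4.81 to 19.2, 21 and 20.7 (1.62, limma adjusted p = 7.51e-07). Mxd4, another such repressor, fell from 8.33, 6.82 and 6.64 to 3.23, 2.92 and 3.03 (-1.02, limma adjusted p = 1.6e-05). In all 3 genes the groups did not overlap, as in 96.4% of all tested genes. Pprc1, a coactivator related to PGC-1alpha, rose from 4.03, 3.61 and 3.23 to 31.5, 23.1 and 23.7 (2.54, SE 0.15, limma adjusted p = 1.33e-07).

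All 4 tested tubulin genes, which encode the subunits of microtubules, were higher under every scaling tried, with a median log2 fold change of 2.08 against 1.01 for all tested genes, of which 63.5% were higher. Tuba1c read 59.8, 58.9 and 60.5 in Control and 499, 464 and 436 in MoS2_NIR (log2 fold change 2.94, SE 0.08, limma adjusted p = 1.91e-09). Tubb4b rose from 100.4, 111 and 101 to 539, 504 and 467 (2.26, limma adjusted p = 2.28e-08), Tuba4a from 47.3, 52.4 and 47.6 to 192, 178 and 186 (1.89, limma adjusted p = 7.17e-08) and Tubb6 from 86.5, 83.01 and 85.2 to 294, 236 and 225 (1.55, limma adjusted p = 2.34e-07). Within each group the values differed little beside the gap between groups. Close copies of tubulin genes can share reads, so single levels are uncertain. Of other cytoskeletal genes, Tpm2, a tropomyosin, fell from 10, 11.4 and 8.99 to 1.69, 2.34 and 2.59 (-1.80, limma adjusted p = 1.71e-06). Flnc, a filamin that crosslinks actin, had a log2 fold change of 1.36 (limma adjusted p = 5.18e-06), which was 0.25 after median-ratio scaling and no longer called. Itgb6, an integrin subunit, read 10.5, 2.14 and 1.92 against 1.69, 1.11 and 1.37 (limma adjusted p = 0.0967), with a Control mean of 4.86 that was 2.03 without Control replicate 1, and it was called lower after either scaling and without Control replicate 3 (limma adjusted p = 0.0383).

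Of 9 tested genes of S phase entry, 9 were called higher, against 63.5% of all tested genes. With median-ratio scaling 3 were higher and 1 lower, a share near the 34.9% of all genes higher under that scaling. E2f8, an atypical E2F that represses E2F targets, read 5.44, 5.9 and 3.74 in Control and 27.6, 26.3 and 26.9 in MoS2_NIR (log2 fold change 2.23, SE 0.14, limma adjusted p = 1.59e-07). E2f3 rose from 1.82, 1.93 and 1.39 to 5.92, 5.3 and 6.57 (1.35, limma adjusted p = 1.55e-06) and Cdc25a, the phosphatase that activates cyclin-dependent kinases, from 7.17, 5.65 and 5.14 to 15.4, 17.1 and 16.2 (1.31, limma adjusted p = 1.98e-06). These 3 genes stayed higher under both other scalings. The cyclin genes Ccnd2 and Ccne1 had log2 fold changes of 1.17 and 1.10 that fell to 0.08 and 0.22 after median-ratio scaling, no longer called. Ccne2 and E2f7, at 0.92 and 0.93, turned to -0.05 and -0.14 under that scaling. E2f2 read 1.22, 3.09 and 0.84 against 3.94, 3.56 and 5.74, with a Control mean of 1.72 that was 1.03 without Control replicate 2, and its call was lost under both scalings. Ccnf, with overlapping groups of 63.5, 47.5 and 50.8 and 74.8, 60.5 and 64.2 (0.30, limma adjusted p = 0.0422), was at -0.82 and called lower after median-ratio scaling, and its call was lost without Control replicate 2 or 3, MoS2 replicate 1, or MoS2_NIR replicate 1 or 3 (limma adjusted p 0.0564 to 0.153). Genes of mitosis have 0 of 23 listed members among those analysed here.

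All 4 DNA repair genes tested were higher under every scaling tried, against 63.5% of all genes, or 34.9% after median-ratio scaling. Exo1, an exonuclease of mismatch repair and end resection, rose from 2.52, 2.34 and 3.02 to 10.8, 11.7 and 10.99 (log2 fold change 1.75, limma adjusted p = 5.22e-07). H2ax, the histone variant phosphorylated at DNA breaks, rose from 22.03, 22.4 and 18.98 to 66.05, 80.2 and 72.2 (1.74, limma adjusted p = 2.05e-07). Ung, the uracil-DNA glycosylase, rose from 2.66, 2.88 and 2.04 to 9.37, 7.42 and 7.15 (1.35, limma adjusted p = 2.78e-06), and Lig4, the ligase of end joining, from 0.71, 0.57 and 0.41 to 2.09, 2.33 and 1.8 (0.98, limma adjusted p = 1.14e-05).

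Histone genes went the opposite way. Of 11 tested replication-dependent and linker histone genes, 10 were called lower and 1, H2ax, higher, with the same counts under both other scalings and a median log2 fold change of -1.25. Among all tested genes 33.9% were lower. H1f2 (ENSMUSG00000036181), a linker histone, read 45.4, 46.1 and 43.6 in Control and 2.97, 4.81 and 5.58 in MoS2_NIR, with the groups far apart (-3.11, SE 0.16, limma adjusted p = 8.37e-08). H2aw fell from 25.6, 23.9 and 26.5 to 2.26, 3.3 and 3.99 (-2.67, limma adjusted p = 8.55e-08) and H2bc8 from 12.5, 14.1 and 19.1 to 3.36, 2.13 and 1.37 (-2.33, limma adjusted p = 4.27e-06). H2bc3 and H2bc4 each had a log2 fold change of -1.48. H1f0, a linker histone of cells that have left the cycle, fell from 1216, 1231 and 1042 to 526, 618 and 662 (-0.95, limma adjusted p = 2.75e-06). The values of 4 other members rest on few libraries or are low. H2ac18 read 12.1, 15.9 and 13.5 against 2.73, 4.05 and 11.7 (limma adjusted p = 0.0193), its irradiated mean of 6.16 was 3.39 without MoS2_NIR replicate 3, and its call was lost without Control replicate 2 (0.0537) or MoS2_NIR replicate 2 (0.066). H2ac12 had an irradiated mean of 2.74 that was 1.75 without the same library. H2ac24 had a log2 fold change of -0.81, and H2bu2 was listed at 0 in 2 irradiated libraries, with 0, 0.15 and 0 against 1.09, 1.11 and 1.09. Many histone genes are close copies of each other, and the mRNAs of most replication-dependent histones lack a poly(A) tail.

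**Figure D3:**
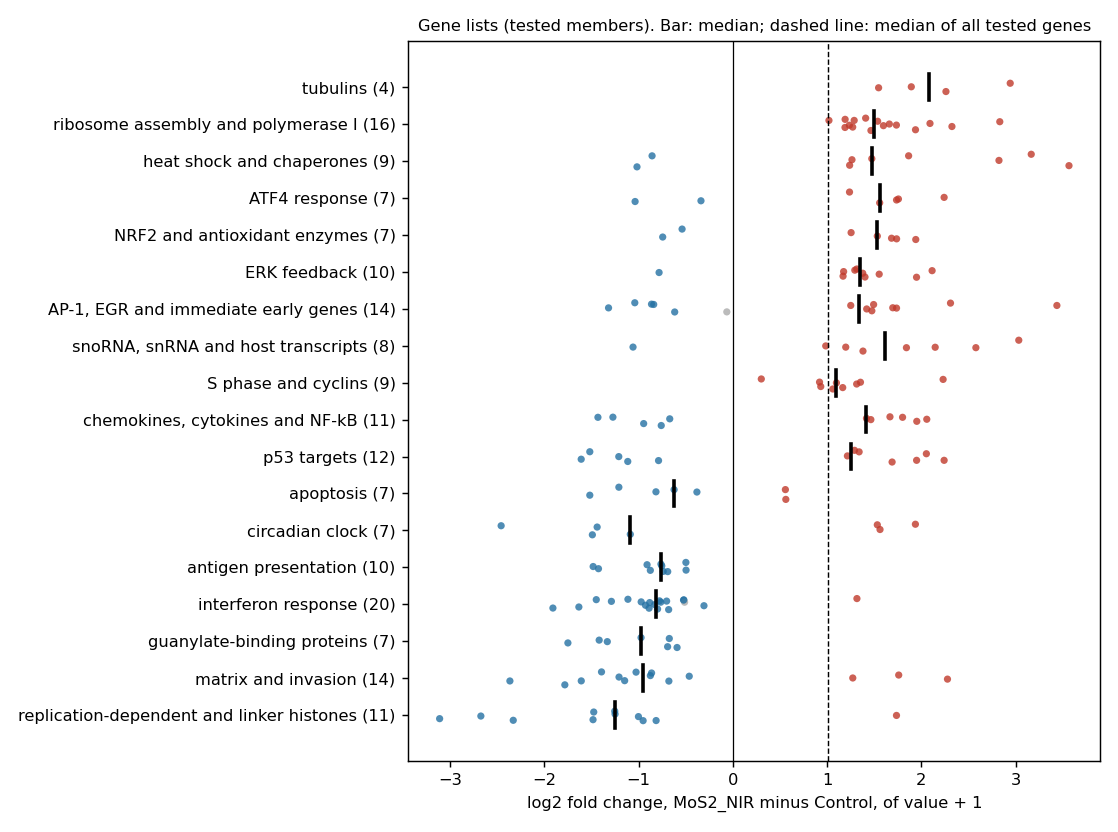
Log2 fold change (x axis, MoS2_NIR minus Control, of value + 1) of each tested member of 18 gene lists (y axis, number tested in brackets), red called higher, blue lower and grey not called. Bars are list medians, and the dashed line is the median of all tested genes, 1.01. Tubulin and ribosome assembly genes lie at or to the right of the dashed line, and all but 1 gene each of the histone and interferon lists lie left of 0.

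Genes of the integrated stress response, which ATF4 drives when amino acids run short or proteins misfold, were mostly higher. Of 7 tested, 5 were higher and 2 lower, a split near that of all tested genes without scaling. After median-ratio scaling the counts were 4 and 2, against 34.9% higher and 36.3% lower among all tested genes. Sesn2, a stress-induced inhibitor of mTORC1 also counted among p53 targets, rose from 2.7, 2.8 and 2.56 to 15.3, 17.2 and 16.9 (log2 fold change 2.24, SE 0.11, limma adjusted p = 5.77e-08). Trib3, a pseudokinase, rose from 18.1, 19.8 and 16.6 to 69.1, 65.4 and 56.9 (1.76, limma adjusted p = 1.28e-07), and Atf3, also counted among the early genes, from 5.47, 5.87 and 4.65 to 15.3, 25.4 and 20.6 (1.74, limma adjusted p = 1.84e-06). The hormone gene Stc2 rose from 4.19, 4.05 and 3.57 to 17.4, 14.4 and 9.74 (1.56, limma adjusted p = 6.49e-06). Slc6a9, a glycine transporter, had a log2 fold change of 1.24 that was 0.19 after median-ratio scaling and no longer called. Ddit4, an inhibitor of mTORC1 that also answers hypoxia, fell from 318, 335 and 269 to 140.5, 156 and 150.2 (-1.04, limma adjusted p = 1.71e-06). Aldh1l2, a mitochondrial folate enzyme, had a log2 fold change of -0.34 (limma adjusted p = 0.0219), and its call was lost without Control replicate 1 or 2 or MoS2_NIR replicate 2 or 3 (0.0534 to 0.0844).

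Of 7 tested antioxidant genes of the NRF2 list, 5 were higher and 2 lower under every scaling tried, near the 63.5% and 33.9% of all tested genes without scaling. After median-ratio scaling 34.9% of all tested genes were higher and 36.3% lower, so the list then had the larger share higher. Txnrd1, thioredoxin reductase, read 42.98, 44.9 and 31.5 in Control and 154, 154 and 153 in MoS2_NIR (log2 fold change 1.94, SE 0.13, limma adjusted p = 2.05e-07). Its irradiated values differed by about 1, far less than the gap to Control. Srxn1, the enzyme that repairs oxidized peroxiredoxins, rose from 14.9, 16.3 and 12.3 to 49.1, 48.7 and 47.5 (1.68, limma adjusted p = 2.85e-07), and Osgin1 from 12.4, 10.6 and 10.1 to 39.7, 38.1 and 39.1 (1.74, limma adjusted p = 1.93e-07). The glutathione transferase genes Gsta1 and Gsta2, which are close copies, had log2 fold changes of 1.53 and 1.25, while another, Gstm1, fell from 11.2, 13.6 and 12.2 to 6.65, 6.76 and 7.42 (-0.74, limma adjusted p = 3.85e-05). Sod3, the extracellular superoxide dismutase, had a log2 fold change of -0.54 (limma adjusted p = 0.000537).

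Since the particles hold molybdenum, genes of metal handling and of the molybdenum cofactor were listed together. Of 4 tested, 4 were higher, as were 63.5% of all tested genes, and with median-ratio scaling 2 were higher and 0 lower, as against 34.9% and 36.3%. Suox, sulfite oxidase, which carries the molybdenum cofactor, rose from 1.97, 2.23 and 1.88 to 7.14, 6.63 and 6.23 (log2 fold change 1.34, limma adjusted p = 8.2e-07). Slc30a1, a zinc exporter, rose from 0.74, 0.71 and 0.81 to 3.75, 2.95 and 3.39 (1.31, limma adjusted p = 1.01e-06). Mocs3, of cofactor synthesis, had 0.90, which was 0.28 and not called after median-ratio scaling, and Mtf1, the metal-responsive transcription factor, had 0.96, which turned to -0.06. Gch1, of tetrahydrobiopterin synthesis and the only tested gene of the ferroptosis list, had a log2 fold change of 0.67 (limma adjusted p = 0.00229) that turned to -0.30 with median-ratio scaling and to -0.08 with quantile normalization.

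Targets of p53 were split, with 7 of 12 higher and 5 lower, near the split of all tested genes without scaling. After median-ratio scaling the counts were 6 and 5, against 34.9% higher and 36.3% lower among all tested genes. Plk3, a stress-responsive kinase, rose from 6.95, 7.62 and 5.62 to 29.3, 31.3 and 32.1 (log2 fold change 2.05, limma adjusted p = 1.54e-07). Epha2, an ephrin receptor, rose from 38.2, 38.9 and 28.2 to 148, 138 and 126 (1.95, limma adjusted p = 1.92e-07), and Aen, an apoptosis-enhancing nuclease, from 4.15, 4.12 and 4.23 to 16.5, 15.6 and 14.9 (1.69, limma adjusted p = 1.01e-07). Gtse1, Plk2 and Zmat3 had log2 fold changes of 1.34, 1.29 and 1.22, with Plk2 at 0.16 and not called after median-ratio scaling. All 3 genes of the Gadd45 growth arrest family were lower. Gadd45b read 252, 277 and 245 in Control and 73.3, 90.2 and 89.5 in MoS2_NIR (-1.61, SE 0.10, limma adjusted p = 1.56e-07), Gadd45a fell from 119, 128 and 102 to 53.6, 56.5 and 49.1 (-1.11) and Gadd45g from 86.97, 87.6 and 81.99 to 25.6, 47.1 and 39.9 (-1.21). Bbc3, the gene of the cell death protein PUMA, fell from 22.2, 22.6 and 15.2 to 10.8, 9.91 and 12.5 (-0.79, limma adjusted p = 0.000508).

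Of 7 tested apoptosis genes, 5 were lower and 2 higher, with a median log2 fold change of -0.62, and with median-ratio scaling the counts were 6 and 0. Of all tested genes 33.9% were lower, and 36.3% after that scaling. Fas, the death receptor, also counted among p53 targets, read 28.1, 26.5 and 26.4 in Control and 7.3, 8.74 and 10.6 in MoS2_NIR (-1.52, SE 0.12, limma adjusted p = 7.46e-07). Bcl2l11, the gene of BIM, fell from 33, 34.03 and 27.4 to 17.02, 16.6 and 18.6 (-0.82, limma adjusted p = 2.19e-05), and the caspase gene Casp12 had a log2 fold change of -1.21. Birc2, an inhibitor of apoptosis, had -0.38 (limma adjusted p = 0.0105). Cflar, which encodes the caspase-8 inhibitor cFLIP, read 18.5, 18.6 and 18.8 against 27.2, 26.96 and 29.7, a log2 fold change of 0.56 (limma adjusted p = 0.000201) that turned to -0.54 after median-ratio scaling. Fadd, the adaptor of Fas, had 0.56 and was not called under either scaling. Zbp1, which detects left-handed nucleic acids and can trigger necroptosis, fell from 11.8, 12.7 and 12.2 to 0.92, 2.05 and 1.53 (-2.43, SE 0.17, limma adjusted p = 3.08e-07). No overlap between the groups was seen in any of these genes, as in 96.4% of all tested genes.

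Interferon-stimulated genes were lower almost throughout. Of 20 tested, 18 were lower, 1 higher and 1 not called, against 33.9% lower among all tested genes, with a median log2 fold change of -0.81. After either scaling 19 were lower and 1 higher. Irf1 (ENSMUSG00000018899), a transcription factor induced by interferon gamma, read 223, 243 and 215 in Control and 58.3, 58.5 and 62.1 in MoS2_NIR. The groups lay far apart (-1.91, SE 0.08, limma adjusted p = 3.79e-08). Ifi27l2a fell from 17.6, 17.8 and 16.9 to 4.67, 4.88 and 5.29 (-1.63, limma adjusted p = 5.66e-07), Sp100, of nuclear bodies, from 13.01, 11.9 and 12.3 to 4.11, 4.17 and 3.45 (-1.45, limma adjusted p = 6.7e-07), and Ifit3, which takes part in blocking foreign RNA, from 4.3, 3.71 and 4.26 to 1.41, 0.96 and 0.91 (-1.29, limma adjusted p = 6.23e-06). Bst2, the tetherin that holds back viruses, fell from 208, 196 and 199.9 to 112, 120.5 and 122 (-0.76, limma adjusted p = 3.32e-06).

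Decreases were also found for Rtp4, Oas1a, Oasl2, Ifi27 and Irf7, at -1.11, -0.97, -0.93, -0.88 and -0.52. Mx2 read 1.75, 3.3 and 3.98 in Control and 1.64, 2.97 and 0.94 in MoS2_NIR, with overlapping groups (limma adjusted p = 0.09). It was called lower after either scaling, without Control replicate 1 (0.0139) and without MoS2_NIR replicate 2 (0.00926). The gene of the list that was higher was Cgas, the sensor of cytosolic DNA, which rose from 1.53, 1.07 and 1.15 to 5.16, 4.1 and 4.54 (1.32, SE 0.14, limma adjusted p = 3.4e-06).

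All 7 tested guanylate-binding proteins, GTPases induced by interferon that attack intracellular microbes, were lower under every scaling tried, with a median log2 fold change of -0.97, against 33.9% lower and a median of 1.01 over all tested genes. Gbp2 read 32.6, 31.9 and 32.6 in Control and 10.3, 12.8 and 11.5 in MoS2_NIR (-1.42, limma adjusted p = 3e-07), and Gbp2b fell from 18.5, 16.9 and 18.3 to 5.85, 7.62 and 6.18 (-1.33, limma adjusted p = 8.08e-07). Gbp8 fell from 9.5, 10.5 and 11.6 to 4.5, 1.05 and 2.54 (-1.75, limma adjusted p = 0.000767), with an irradiated mean of 2.7 that was 1.79 without MoS2_NIR replicate 1. Gbp3, Gbp9, Gbp7 and Gbp5 had log2 fold changes from -0.97 to -0.59. These genes are related in sequence, and reads may be split among them.

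Antigen presentation genes were lower too, with 10 of 10 tested lower under every scaling tried and a median log2 fold change of -0.76, again against 33.9% of all genes. The immunoproteasome subunits Psmb8 and Psmb9, which cut peptides for class I molecules, fell from 29.01, 27.3 and 27.4 to 10.3, 9.09 and 8.68 and from 5.85, 5.1 and 6.53 to 1.57, 1.68 and 1.36 (-1.48 and -1.42, limma adjusted p = 5.29e-07 and 8.08e-07). B2m, the light chain of class I molecules, read 1213, 1166 and 1308 in Control and 634, 679 and 648 in MoS2_NIR (-0.91, SE 0.07, limma adjusted p = 5.16e-07). Tap1 and Tap2, which together form the peptide transporter, fell from 12.7, 13.7 and 11.3 to 6.14, 8.0 and 7.3 and from 25.4, 28.1 and 21.6 to 13.8, 14.8 and 16.7 (limma adjusted p = 0.000188 and 0.000232). Psme1, Tapbpl, H2-T22, H2-Q4 and Cd1d1 had log2 fold changes from -0.87 for H2-T22 to -0.50 for Cd1d1. In every member the groups did not overlap, as in 96.4% of all tested genes.

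**Figure D4:**
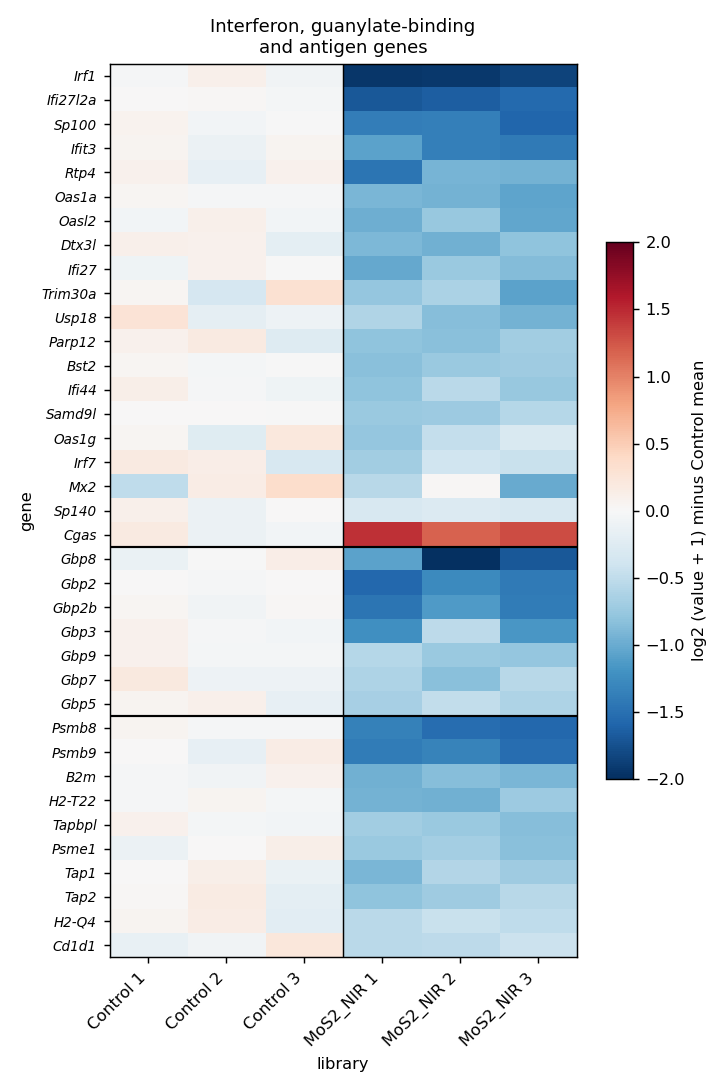
Log2 (value + 1) minus the Control mean of the gene (colour, red above and blue below) for the 20 interferon, 7 guanylate-binding and 10 antigen presentation genes tested (rows) in each of the 3 Control and 3 MoS2_NIR libraries (columns). Irf1 is the darkest row of its block at about -1.91, Cgas is the red row, and Mx2 is the row whose groups overlap.

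Of 11 tested cytokine and NF-kB genes, 6 were higher and 5 lower (5 and 5 after median-ratio scaling). These are 54.5% and 45.5%, against 63.5% and 33.9% of all tested genes, or 34.9% and 36.3% after that scaling. Those that rose include attractants and growth factors of neutrophils. Cxcl5 read 58.8, 51.4 and 54.6 in Control and 271, 224 and 204 in MoS2_NIR (limma adjusted p = 8.37e-08 for a log2 fold change of 2.06 with an SE of 0.11), and Cxcl1 rose from 115, 103 and 108 to 454, 380.4 and 319 (1.80, limma adjusted p = 2.05e-07). Csf2, the gene of GM-CSF, rose from 1.54, 1.38 and 1.54 to 9.98, 9.17 and 6.96 (1.95, limma adjusted p = 8.08e-07). Csf3, the gene of G-CSF, rose from 64.02, 62.3 and 62.8 to 209.5, 167 and 141 (1.42, limma adjusted p = 1.23e-06), which was 0.29 after median-ratio scaling (limma adjusted p = 0.0597). Ccl20 rose from 0.15, 0.79 and 0.32 to 4.05, 4.42 and 2.18 (1.67, limma adjusted p = 4.16e-05), with a Control mean of 0.42 that was 0.235 without Control replicate 2. With pseudocounts of 0.1 and 5 the log2 fold change of Ccl20 was 2.95 and 0.65. In Cxcl1, Cxcl5, Csf2 and Csf3 the irradiated values were highest in replicate 1 and lowest in replicate 3. Tnfaip2, a TNF-induced gene, had a log2 fold change of 1.46.

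The other 5 members of the list were lower. Cxcl10, an interferon-induced attractant of T cells, fell from 10.8, 13.6 and 11.3 to 2.73, 4.46 and 4.34 (-1.43, limma adjusted p = 6.23e-06), and Ccl5, another T cell attractant, from 59.3, 54.3 and 63.99 to 32.5, 35.5 and 35.6 (-0.76, limma adjusted p = 2.58e-05). Csf1, the growth factor of macrophages, fell from 127, 135 and 104 to 46.9, 51.3 and 51.1 (-1.27, limma adjusted p = 7.46e-07). Nfkbia, the inhibitor that NF-kB induces to limit itself, read 256, 241 and 243 in Control and 126, 128 and 129 in MoS2_NIR (-0.95, limma adjusted p = 5.96e-07). Il11 had a log2 fold change of -0.67 (limma adjusted p = 0.00526). Zc3h12a, an RNase that degrades cytokine mRNAs, rose from 5.81, 6.95 and 3.83 to 25.6, 24.8 and 27.8 (2.08, limma adjusted p = 6.7e-07). Il31ra, a cytokine receptor subunit, read 251, 602 and 409 against 1606, 1141 and 1174 (1.70, limma adjusted p = 0.00147), which was 0.56 and not called after median-ratio scaling.

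Genes of matrix and invasion were mostly lower, with 11 of 14 lower and 3 higher under every scaling tried and a median log2 fold change of -0.95, against 33.9% lower and 63.5% higher among all tested genes. Mmp9, a secreted gelatinase, read 46.9, 56.4 and 40.3 in Control and 7.79, 8.4 and 9.04 in MoS2_NIR (-2.36, SE 0.12, limma adjusted p = 8.37e-08). Snai1, a repressor of E-cadherin, fell from 111, 132 and 90.4 to 27.8, 36.1 and 44.1 (-1.61, limma adjusted p = 6.14e-06). Fn1, fibronectin, fell from 452, 503 and 343 to 175, 172 and 209 (-1.21, limma adjusted p = 5.75e-06). Lamb3, Timp1, Mmp3, Mmp11 and Mmp13 had log2 fold changes from -1.03 for Lamb3 to -0.46 for Mmp13. Adamts1, a protease of proteoglycans, rose from 6.98, 8.34 and 6.48 to 38, 39.7 and 38.97 (2.28, limma adjusted p = 5.13e-08), Has2, hyaluronan synthase, from 1.46, 1.88 and 1.65 to 7.3, 8.33 and 8.42 (1.76, limma adjusted p = 2.05e-07) and Adam19 from 2.49, 2.82 and 1.87 to 8.31, 7.04 and 6.21 (1.27).

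Of the 3 tested markers of 4T1 cells, 2 were lower and 1, Csf3, was higher, as given above (2 lower and Csf3 not called after median-ratio scaling). Among all tested genes 33.9% were lower and 63.5% higher, or 36.3% and 34.9% after that scaling. Lcn2, lipocalin, fell from 394, 382 and 422 to 93.4, 109 and 94.2 (-2.01, SE 0.09, limma adjusted p = 3.79e-08). Spp1, osteopontin, read 1243, 1198 and 1285 in Control and 528, 582 and 571 in MoS2_NIR (-1.15, limma adjusted p = 1.11e-07). The fibroblast marker Postn, periostin, fell from 4.5, 4.4 and 3.8 to 0.52, 0.39 and 0.66 (-1.78, limma adjusted p = 7.46e-07), and Col1a1 read 0.69, 0.86 and 0.6 against 0.33, 0.28 and 0.35, below the limit for testing. The part of other cells in the lower matrix genes was not tested.

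Of 7 tested clock genes, 3 were higher and 4 lower under every scaling tried, or 42.9% and 57.1%, against 63.5% and 33.9% of all tested genes. Nr1d1, the repressor REV-ERBalpha, read 294, 329 and 232 in Control and 40.6, 52.2 and 60.8 in MoS2_NIR (-2.46, SE 0.16, limma adjusted p = 2.19e-07). Per1 fell from 143, 154 and 109.8 to 40.5, 46.9 and 55.2 (-1.49, limma adjusted p = 2.34e-06), while its relative Per2 rose from 1.04, 1.59 and 0.85 to 6.77, 7.27 and 7.54 (1.94, limma adjusted p = 3.08e-07). Cry1 and Cry2, partners of the PER proteins, rose from 4.37, 3.39 and 2.81 to 11.4, 12.6 and 12.7 and from 2.61, 3.13 and 1.88 to 8.31, 9.36 and 9.79 (1.56 and 1.53, limma adjusted p = 1.13e-06 and 1.56e-06). Bhlhe40, the repressor DEC1, fell from 402, 468 and 358 to 134, 148 and 168 (-1.44, limma adjusted p = 5.31e-07), and Nfil3 had a log2 fold change of -1.09. In Nr1d1, Per1 and Bhlhe40 the Control values were highest in replicate 2 and lowest in replicate 3.

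Mitochondrial transcripts differed by kind. The complex I genes mt-Nd1 and mt-Nd2 rose from 469, 459.7 and 505 to 1706, 1728 and 1896 and from 362, 359.7 and 389 to 1118, 1169 and 1323 (1.89 and 1.69, limma adjusted p = 3.16e-08 and 5.13e-08). The small mitochondrial ribosomal RNA, mt-Rnr1, fell from 218, 198 and 226 to 109, 131 and 129 (-0.80, limma adjusted p = 1.17e-05). These directions were the same under both other scalings, and no other transcript of the mitochondrial genome is among the genes. Cox7a1, a nuclear gene for a subunit of cytochrome oxidase, read 7.24, 7.13 and 6.42 against 2.19, 5.0 and 0.91 (-1.26, limma adjusted p = 0.00793), with an irradiated mean of 2.7 that was 1.55 without MoS2_NIR replicate 2.

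Of 8 noncoding RNAs and host transcripts tested, 7 were higher and 1 lower, against 63.5% and 33.9% of all tested genes (5 and 1 after median-ratio scaling, against 34.9% and 36.3%). Mir22hg, the host transcript of a microRNA, rose from 1.73, 3.66 and 0.95 to 24.4, 20.3 and 24.1 (3.03, SE 0.29, limma adjusted p = 5.79e-06), with a Control mean of 2.11 that was 1.34 without Control replicate 2. Mir17hg, the host of a cluster of microRNAs induced by Myc, rose from 0.73, 0.59 and 0.92 to 7.08, 6.5 and 6.57 (2.15, limma adjusted p = 1.11e-07). With pseudocounts of 0.1 and 5 the log2 fold change of Mir17hg was 3.03 and 1.03. Rmrp, the RNA of the RNase MRP that cuts ribosomal RNA precursors, rose from 2.32, 1.11 and 0.97 to 5.54, 32.1 and 12.6 (2.58, SE 0.54, limma adjusted p = 0.00182), and its irradiated mean of 16.8 was 9.05 without MoS2_NIR replicate 2. The snoRNA hosts Snhg15, Snhg17 and Snhg16 had log2 fold changes of 1.84, 1.38 and 0.99, of which Snhg17 was not called and Snhg16 turned to -0.09 after median-ratio scaling. Neat1, the RNA scaffold of paraspeckles, fell from 562, 579.9 and 472 to 236, 243 and 295 (-1.06, limma adjusted p = 7.3e-06). Whether the counting used strand is not known, so reads of an antisense partner cannot be separated.

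Metabolic and signalling genes with single or few listed members also moved. Egln3, an oxygen sensor induced in hypoxia, rose from 47.2, 50 and 41.5 to 178, 168 and 144 (1.80, limma adjusted p = 1.33e-07), whereas the hypoxia-induced hormone gene Adm had a log2 fold change of -1.03 and Pfkfb3, a regulator of glycolysis, of -1.30. Map1lc3b, whose product coats autophagosomes, fell from 146, 144 and 141 to 54.2, 59.3 and 54.6 (-1.35, limma adjusted p = 1.59e-07). Tgfbr2 had 1.14, which was 0.04 after median-ratio scaling and not called. Of 3 tested genes of RNA decay and splicing, 1 was higher, Zc3h12a, as given above. The other 2, Luc7l3 and the helicase gene Ddx17, were lower, at -0.78 and -0.64. Among all tested genes 63.5% were higher and 33.9% lower.

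Beyond these lists, the genes with the largest increases include Fam83h, which read 6.52, 9.21 and 6.02 in Control and 55.1, 55.1 and 53.6 in MoS2_NIR (log2 fold change 2.77, SE 0.13, limma adjusted p = 6.8e-08). Apoe, the lipid carrier apolipoprotein E, rose from 0.44, 0.58 and 0.52 to 9.96, 9.58 and 6.28 (2.64, limma adjusted p = 2.83e-07), and Slc16a8, a lactate transporter, from 0.28, 0.35 and 0.08 to 4.98, 5.3 and 5.7 (2.36, limma adjusted p = 8.37e-08). These folds of genes low in Control also rest on the pseudocount, and with 0.1 and 5 they were 3.80 and 1.29 for Apoe and 4.11 and 0.98 for Slc16a8. Tlnrd1 and Ccdc86 had log2 fold changes of 2.35 and 2.34, which were 3.32 and 3.37 with a pseudocount of 0.1 and 1.14 and 1.11 with 5. Pira12, a leukocyte receptor gene with close copies, read 0, 1.25 and 0 in Control and 2.37, 9.05 and 21.6 in MoS2_NIR (2.80, SE 0.98, limma adjusted p = 0.0261). Its irradiated mean of 11.02 was 5.71 without MoS2_NIR replicate 3, its Control values rested on replicate 2 alone, and its call was lost after median-ratio scaling and without Control replicate 1 or 3 or MoS2_NIR replicate 2 or 3 (limma adjusted p 0.06 to 0.0777). Its fold change was 5.05 with a pseudocount of 0.1 and 1.38 with 5.

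The largest decrease by the same measure was that of Zfp986, of a zinc finger family whose members can share reads, which read 104, 55.9 and 115 in Control and 2.19, 1.86 and 15.7 in MoS2_NIR (-4.05, SE 0.68, limma adjusted p = 0.000688). Its irradiated mean of 6.57 was 2.02 without MoS2_NIR replicate 3. Pim1, a survival kinase gene, fell from 111, 121 and 81.9 to 18.2, 23.3 and 27.4 (-2.14, limma adjusted p = 5.96e-07). Nt5e, the ectoenzyme CD73 that makes adenosine, fell from 90.6, 86.7 and 79.5 to 20.5, 19.9 and 25.6 (-1.92, limma adjusted p = 1.11e-07), and Ctsw, a cathepsin, from 52.8, 49.7 and 47.1 to 10.2, 12.1 and 13.8 (-1.97, limma adjusted p = 1.11e-07). Ramp1, a receptor partner for calcitonin-family peptides, the ligand gene Wnt9a and Mab21l4 had log2 fold changes of -1.98, -1.88 and -2.05. Vdr, the vitamin D receptor, fell from 16.1, 16.4 and 15.1 to 3.66, 3.4 and 5.65 (-1.71, limma adjusted p = 1e-06).

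Some genes were listed at 0 in all libraries of 1 group. In Control these were 45 genes, of which 26 are not predicted genes, and in MoS2_NIR 37, of which 14 are not. Apart from Hspb1, irradiated values were low, with Lin7b, of cell polarity, at 1.15, 0.82 and 0.87, Nrn1l at 0.56, 1.05 and 0.75, and the pseudogenes Apoo-ps and Obox4-ps19 at 0.63, 1.56 and 1.06 and 0.03, 0.62 and 1.64. In the other direction Pet117, a factor for assembly of cytochrome oxidase, was at 2.67, 1.93 and 3.97 in Control and Inafm1 at 1.51, 3.07 and 1.43. These genes were chosen for their zeros, so no test of the difference is given. The pseudogenes H2bu1-ps, Idi1-ps1 and Zfp422-ps were at 0.82, 2.47 and 1.42, at 1.24, 0.09 and 0.29 and at 0.71, 0 and 0.88.

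The irradiated libraries were uneven in some genes and tight in others. Hspa1b, Hspa1a, Hspb1 and Rmrp were all lowest in MoS2_NIR replicate 1 and highest in replicate 2, whereas Fos, H2ac18, Pira12 and Zfp986 were highest in replicate 3. Hsph1, Atf3, Cryab and Dnajb5 were also highest in replicate 2, with values of 60.6, 82.02 and 71.1 for Hsph1 and 15.3, 25.4 and 20.6 for Atf3. The called genes with the smallest spread among irradiated libraries were Ccm2 at 31.7, 31.7 and 31.7, Rhno1 at 42.99, 42.9 and 42.9, Atmin at 7.12, 7.15 and 7.13, Txnrd1 and Slc35f6. Atmin and Rhno1 act in DNA damage signalling and rose from 2.23, 2.08 and 2.02 and from 14.4, 15.6 and 15.6 (log2 fold changes 1.39 and 1.44, limma adjusted p = 4.33e-07 and 4.34e-07). Slc35f6 had 1.12, which was 0.06 and not called after median-ratio scaling.

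**Figure D5:**
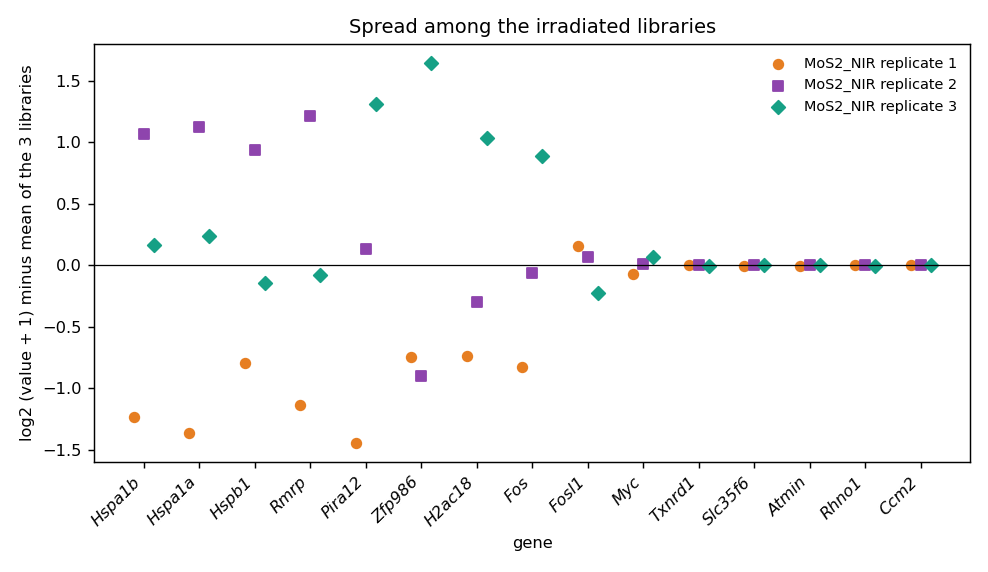
Log2 (value + 1) of 15 genes (x axis) in each irradiated library minus the mean of the 3 libraries (y axis), with symbols for MoS2_NIR replicates 1 to 3. Hspa1b, Hspa1a, Hspb1 and Rmrp share the order of replicates 1, 3 and 2 from low to high, Fos and H2ac18 are highest in replicate 3, and the 5 genes on the right have nearly equal values.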

How the data were processed

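The build mm10, Cufflinks 2.1.1, Bowtie 0.12.9 and HTSeq are named, without their steps, per the submitters' processing notes, and the library kit is a QIAseq FX kit per the labels' protocols. The deposited table holds 1 score per gene and library, standardized by the authors over the 9 libraries to a mean of 0 and a population SD of 1. Values behind the scores were recovered by a search for values with a step of 0.01 whose ln (value + 1) gives the deposited scores within 3e-09, accepting a solution where fewer than 0.001 were expected by chance. This gave 2389 of 2392 genes (99.87%), 2 without a name. The level of 9 genes, none named here, is fixed only apart from a whole-number factor. The unit and depth of the values are not known, so no counting interval is given.

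Log2 (value + 1) of the 1746 genes that reached 1 in 3 or more libraries was fitted with limma 3.58.1 in R 4.3.3 (trend, robust), with all 9 libraries in 1 fit and 6 residual degrees of freedom, and p-values were adjusted over all tested genes. Means and single values are on the recovered scale, and errors are SE of the log2 fold change. Groups come from the sample titles. Alternatives were other pseudocounts, filters, scalings and models, and each library left out.

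The gene lists were written, and the contrast chosen, with earlier results of these data known. Genes named are the 15 highest and 15 lowest changes among called genes whose mean reached 5 in a group, up to 5 called and 2 not called of each list, the 5 highest values among genes listed at 0 in a group, and the 5 largest and 5 smallest spreads among irradiated libraries, predicted genes aside throughout, and the 5 highest means of each group. Other list members were named after their values were seen, as were Vdr and the genes of the symbol families, and a few selected genes are not reported here. Gene length was not used, so ranks of genes by mean level, which serve only to select names and level classes, are not per length. Positions and sequences on mm10 were not used here, because the annotation at hand is that of the rat.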

Additional observations from a re-analysis of the deposited data

How the results depend on the processing

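More genes were higher than lower under every alternative tried in limma except median-ratio scaling. With pseudocounts of 0.1 and 5 the median log2 fold change of 1.01 became 1.32 and 0.46. Without a filter it was 0.62, with 94.6% of genes not overlapping in place of 96.4%. With a minimum of 5 in place of 1 it was 1.18, with 684 genes higher, 348 lower and 97.7% not overlapping. After median-ratio scaling it was 0.16, with 610 higher and 75.5% not overlapping, and 487 calls were lost. After quantile normalization it was 0.44, with 90.7% not overlapping. Leaving out each library gave 1096 to 1109 genes higher, 571 to 593 lower, a median of 0.95 to 1.03 and 96.4% to 97.8% not overlapping. The deviations of same-numbered libraries from their group means correlated at -0.012, -0.046 and -0.084, and no library correlated best with its own number. With 3 libraries a group this cannot show whether same-numbered libraries share more than a number, such as a day or batch. With a replicate block 1110 were higher and 596 lower, and no named gene changed its call.

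Of 247 genes selected for naming and tested, 211 kept direction and call after median-ratio scaling, 25 lost the call, 3 gained it and 8 reversed. These were Gch1 at -0.30, Mtf1 at -0.06, Ccne2 at -0.05, Ccnf at -0.82, Cflar at -0.54, E2f7 at -0.14, Klf3 at -0.28 and Snhg16 at -0.09. After quantile normalization 236 kept both, and Gch1 reversed to -0.08. Nr4a1, at -0.06 and not called, was -1.17 and called lower after median-ratio scaling (limma adjusted p = 0.00503), 0.14 without Control replicate 1 and 0.06 without MoS2_NIR replicate 1, and it ranged from -0.29 to 0.14 over the libraries left out. With pseudocounts of 0.1 and 5 the log2 fold changes of 25 and 90 of the 247 genes moved by over 1.5 times. The cause of these changes was not tested beyond the change of scaling itself. The depth is unknown, and 3 libraries a group limit precision.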

Other observations

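Gene families were also defined by symbol. Of 67 tested zinc finger genes named Zfp, 62 were higher and 3 lower, against 63.5% and 33.9% of all tested genes, with a median log2 fold change of 1.04, and with median-ratio scaling the counts were 32 and 4, against 34.9% and 36.3% of all genes under that scaling. Of 39 solute carriers 33 were higher and 6 lower, but 15 and 6 after median-ratio scaling, where the share higher is near the 34.9% of all genes. Slc38a2, an amino acid transporter, rose from 23.3, 24.3 and 20.9 in Control to 66.9, 63.6 and 73.8 in MoS2_NIR (log2 fold change 1.53, limma adjusted p = 2.05e-07), and Slc29a2, a nucleoside transporter, from 1.18, 1.45 and 1.10 to 6.04, 5.87 and 6.17 (1.65, limma adjusted p = 4.87e-07). Slc43a2, an amino acid transporter, and Slc20a1, a phosphate transporter, had log2 fold changes of -1.24 and -0.92. All 6 WD repeat genes, among them Wdr74 and Wdr4, were higher (5 after median-ratio scaling). Of 6 Krüppel-like factors 5 were higher and Klf10 was lower, and Klf3 turned from 0.79 to -0.28 after median-ratio scaling. All 3 serpins were lower and all 3 interleukin receptors were higher, of which 1 was higher after median-ratio scaling. Of all tested genes 63.5% were higher and 33.9% lower, or 34.9% and 36.3% after median-ratio scaling. Each of these 4 families has 6 or fewer tested members.

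Of 254 predicted genes tested, 90 were higher and 153 lower, with a median log2 fold change of -0.66 (47 and 159 after median-ratio scaling), while among 1429 genes that are neither predicted genes nor Rik clones 985 were higher and 411 lower, with a median of 1.10. The share of genes called higher also varied with level. With genes divided into 4 equal classes by their mean over the 6 libraries, it was 57.9% in the lowest class, 72.0% and 72.9% in the middle classes and 51.3% in the highest.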
